A study of Mus musculus with 18 samples.

Results

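Akt1, Akt2, Nras and Hras were followed across 12 bulk RNA-seq libraries of mouse liver tumours, of which the N-Ras+AKT libraries come from tumours started by injected N-Ras and AKT plasmids. The 4 genes were chosen by name as the Akt and Ras paralogs to compare, out of 55335 genes in the count table, and all 4 were among the 17013 genes tested. The question was how the genes named after the injected oncogenes differ from paralogs that were not injected. The labels give N-Ras as the injected Ras, so Hras is an uninjected paralog. They do not say which AKT paralog the AKT plasmid encodes, nor from which species either insert comes, and the counts do not separate a transcript of the mouse locus from one of a plasmid.

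The tumours came from 2 models, each with 3 control libraries and 3 libraries after ablation of cells that express Prom1, which encodes the surface protein prominin-1, known from stem and progenitor cells. In the DEN+CCl4 model, 14-day-old mice were given DEN, a carcinogen that damages DNA, at 1 mg/kg, and CCl4, which injures hepatocytes, followed from 8 weeks of age at 0.2 ml/kg for 12 to 16 weeks. In the N-Ras+AKT model, the plasmids pT3-EF1a-NRasV12 and pT3-EF1a-myr-AKT (20 µg each) went into the tail vein by the hydrodynamic route, which delivers DNA mainly to hepatocytes, together with sleeping beauty transposase (1.6 µg), which inserts them into the genome. The NRasV12 insert carries valine at codon 12, the myr-AKT insert carries a membrane-targeting myristoylation signal, and both are driven by the EF1a promoter. The depletion mice were Prom1C-L/+;Rosa26DTA/+, in which a tamoxifen-activated Cre made under the Prom1 promoter switches on diphtheria toxin A. Tamoxifen was given in repeated 4 mg doses once tumours had formed, and tumours were collected later, with 16 days between the final dose and collection in DEN+CCl4 and 6 days in N-Ras+AKT. The strain label gives all 12 libraries that genotype, while the design text names Prom1+/+;Rosa26DTA/+ littermates as controls, and olive oil as a vehicle. The labels do not settle whether controls differed in genotype, in treatment or in both.

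Ras proteins are small GTPases that switch on when exchange factors load them with GTP and off when GTPase-activating proteins make them hydrolyse it. Active Ras binds effectors such as RAF kinases, which start the MAP kinase cascade, and PI3 kinase, whose lipid product brings AKT kinases to the plasma membrane, where they are activated. Substitutions at codon 12 hold Ras in its active state, and a myristoylated AKT sits at the membrane without PI3 kinase. AKT phosphorylates FOXO transcription factors and so removes them from the nucleus, and the pair of oncogenes together forms tumours in mouse liver.

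The first coding bases of Hras, Akt1 and Akt2 are shown because they hold codon 12 of the uninjected Ras gene and because they show how unlike the Akt paralogs are at the base level. They were read 5′ to 3′ from the GRCm38 genome with GENCODE M21 models. For Hras (chr7:141192881-141192940, minus strand, exon 2) the capitals mark codon 12, a glycine codon. For Akt1 (minus strand, chr12:112671516-112671561 in exon 2 and chr12:112662295-112662308 in exon 3) and Akt2 (plus strand, chr7:27608708-27608753 in exon 2 and chr7:27616241-27616254 in exon 3) the capitals mark the start codon.
Hras: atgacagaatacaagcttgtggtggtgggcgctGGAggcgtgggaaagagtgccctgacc
Akt1: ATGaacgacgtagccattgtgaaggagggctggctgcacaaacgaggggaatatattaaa
Akt2: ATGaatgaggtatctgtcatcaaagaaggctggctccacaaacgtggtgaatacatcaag

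Over their coding regions, Akt1 (1440 bases without the stop codon) and Akt2 (1443 bases) were identical at 77.5% of 1437 aligned bases, and Nras and Hras (567 bases each) at 76.1% of 566. The longest run of identical bases that these coding regions of Akt1 and Akt2 share is 32 bases long. It is shown because an exact match to both coding regions can be no longer. Matches that allow mismatches, and bases outside the coding regions, were not compared between these genes.
Akt1 and Akt2, from base 1087 of Akt1 and base 1090 of Akt2: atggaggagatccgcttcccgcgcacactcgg
No 50-base word of the coding regions of Akt1, Nras or Hras occurs in a transcript of another gene in GENCODE M21. Akt2 shares 51.2% of its 50-base words with the pseudogene Akt2-ps, to which 1 to 10 counts per library were assigned against 1859 to 3324 for Akt2. How reads that match both were counted is not stated, so these counts do not measure how uncertain the Akt2 values are. No read length is given in the labels.

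Library totals ran from 31306617 to 48055812 counts. DEN+CCl4 depletion 6 and N-Ras+AKT depletion 17 stood apart from the other libraries of their groups on a principal component. Prom1, the gene whose promoter drives the ablation, had 60.9 ± 16.5 CPM in N-Ras+AKT controls and 8.16 ± 7.45 after depletion (SD, n = 3; log2 difference -2.90, adjusted p = 0.00953), and 61.9 ± 14.0 and 31.03 ± 12.0 CPM in the DEN+CCl4 groups (log2 difference -0.995, adjusted p = 0.381). Of 9 hepatocyte markers 8 were matched, and in DEN+CCl4 their summed level was 193200 to 253900 CPM (controls) and 157700 to 206500 (depletion). In N-Ras+AKT it was 72830 to 83130 and 64510 to 73720 CPM. None of these markers was at 0. CPM is a gene's count per 1000000 counts of the library total, the total being scaled by the trimmed mean of M-values (TMM). The test was edgeR's quasi-likelihood test, which a gene passed when its p, adjusted by the Benjamini-Hochberg method across the 17013 genes, was below 0.05. The labels do not say that the libraries of a group came from separate animals, so p-values measure only the spread between these libraries.

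Akt1 (ENSMUSG00000001729.14, chromosome 12, 112653821 to 112674884, minus strand) encodes the AKT isoform that is expressed in most tissues. In DEN+CCl4 controls 7, 8 and 13 it had 50.6, 53.1 and 53.5 CPM. In DEN+CCl4 depletion 6, 9 and 10 it had 48.1, 53.6 and 49.998 CPM. All 6 libraries of that model lay within a narrow band. In N-Ras+AKT controls 3, 10 and 15 the level was 1213, 874 and 1214 CPM, and in N-Ras+AKT depletion 6, 11 and 17 it was 558, 613 and 501 CPM. Every N-Ras+AKT library lay far above every DEN+CCl4 library, and within the N-Ras+AKT model every depletion library lay below every control.

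Akt2 (ENSMUSG00000004056.15, chromosome 7, 27591552 to 27640826, plus strand) encodes the isoform that carries much of the insulin signal in liver. DEN+CCl4 controls 7, 8 and 13 had 66.2, 71.9 and 70.4 CPM, and DEN+CCl4 depletion 6, 9 and 10 had 65.7, 67.9 and 73.2 CPM. N-Ras+AKT controls 3, 10 and 15 had 46.9, 50.9 and 48.6 CPM, the lowest levels of the 12 libraries. N-Ras+AKT depletion 6, 11 and 17 had 65.8, 61.5 and 74.99 CPM, which overlapped both DEN+CCl4 groups.

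Nras (ENSMUSG00000027852.14, chromosome 3, 103058285 to 103067914, plus strand) encodes the GTPase named in the plasmid. DEN+CCl4 controls 7, 8 and 13 had 28.0, 32.6 and 27.4 CPM, and DEN+CCl4 depletion 6, 9 and 10 had 20.96, 25.9 and 28.1 CPM. N-Ras+AKT controls 3, 10 and 15 had 67.1, 50.7 and 59.1 CPM, and N-Ras+AKT depletion 6, 11 and 17 had 44.9, 48.2 and 45.8 CPM. The 2 models did not overlap, and the depletion libraries of the N-Ras+AKT model lay below its controls.

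Hras (ENSMUSG00000025499.18, chromosome 7, 141189105 to 141194005, minus strand) encodes a GTPase that binds the same effectors as N-Ras. DEN+CCl4 controls 7, 8 and 13 had 24.6, 25.0 and 23.3 CPM, and DEN+CCl4 depletion 6, 9 and 10 had 15.1, 21.2 and 22.5 CPM. N-Ras+AKT controls 3, 10 and 15 had 28.9, 29.1 and 24.4 CPM, and N-Ras+AKT depletion 6, 11 and 17 had 25.9, 30.8 and 24.03 CPM. The control groups of the models overlapped, and DEN+CCl4 depletion 6 had the lowest value of the 12. The level of each gene by library is plotted in 1 panel per gene.

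**Figure D1:**
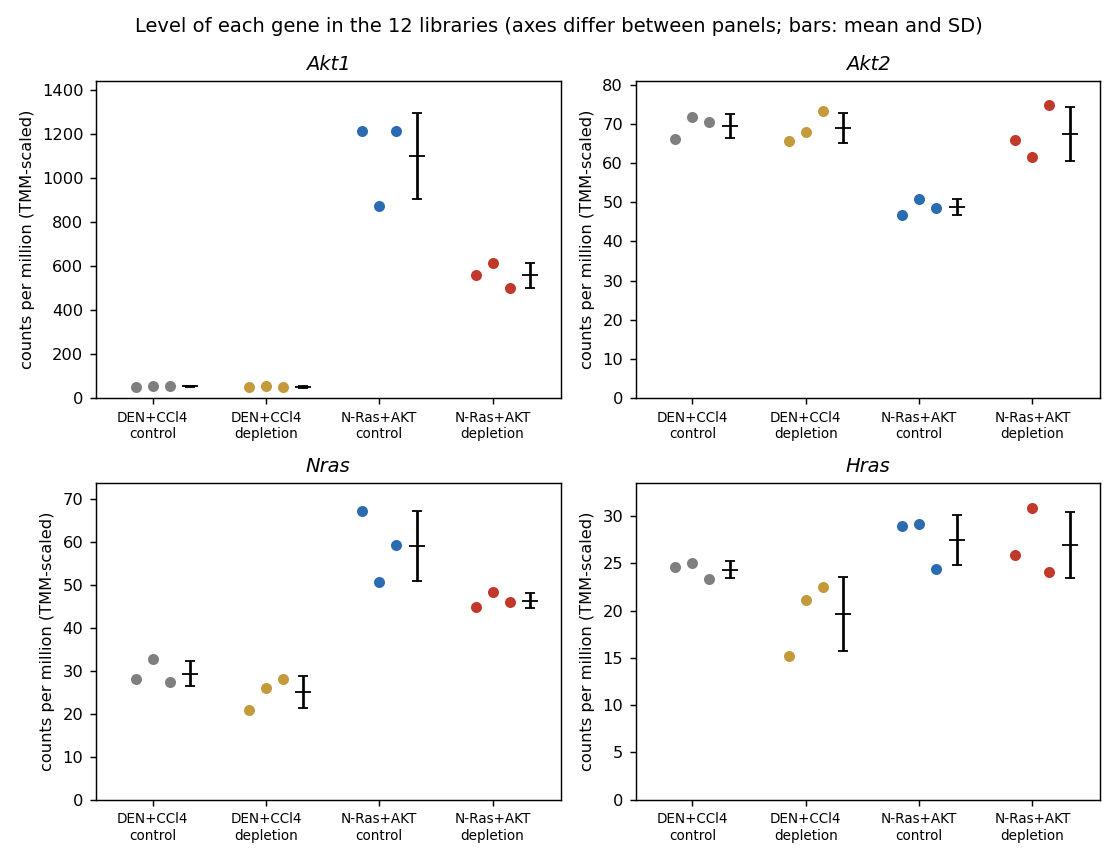
TMM-scaled CPM of Akt1, Akt2, Nras and Hras on the y axis for the 4 groups on the x axis, 1 point per library, with the mean and SD of 3 libraries beside them and a separate axis per panel. Akt1 lies between 48.1 and 53.6 CPM in the 6 DEN+CCl4 libraries and between 501 and 1214 CPM in the 6 N-Ras+AKT libraries, whereas Hras in the control groups overlaps.

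Between the control groups, Akt1 was 21.0-fold higher in N-Ras+AKT than in DEN+CCl4 tumours (log2 difference 4.39, SE 0.17, adjusted p = 1.94e-07), and Nras was 2.01-fold higher (log2 difference 1.01, SE 0.13, adjusted p = 0.000189). Akt2 was 1.43-fold lower (log2 difference -0.51, SE 0.10, adjusted p = 0.00175), but it turned to 0.14 (adjusted p = 0.267) when libraries were scaled by their total counts alone. Hras had a log2 difference of 0.18 (SE 0.15, adjusted p = 0.361), and under total count scaling it passed at 0.82 (adjusted p = 0.000495). So 3 of the 4 genes passed, 2 higher and 1 lower, beside 40.6% of all genes tested in this comparison, of which 51.3% were higher (89.9% under total count scaling). That scaling moved the median of all genes from 0.04 to 0.68. Relative to that median the 4 genes were then at 4.36 (Akt1), -0.55 (Akt2), 0.97 (Nras) and 0.14 (Hras).

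The size of the Akt1 difference was exceeded by few genes, whereas that of Nras was common. Ordered by the size of the log2 difference in either direction, Akt1 was at place 271 and Nras at place 4129 of 17013. Ordered from the highest value, they were at places 203 and 2335. Akt1 took 0.107% to 0.161% of all counts in N-Ras+AKT controls, against 0.00391% to 0.00453% in DEN+CCl4 controls. Per kilobase of merged exons, it was at places 91 to 148 of 16999 genes in N-Ras+AKT controls and 2256 to 2341 in those of DEN+CCl4. Nras was at places 2213 to 2939 and 4288 to 4901 in the same groups. The merged exons are those of the mouse genes, 4098 bases for Akt1 and 5331 for Nras. A plasmid transcript of another length would not be scaled by its own length, so these places are uncertain in N-Ras+AKT libraries. Above the mean of the DEN+CCl4 controls, the N-Ras+AKT controls had a further 1048 CPM of Akt1 (821.5 to 1162 by library) and 29.6 CPM of Nras (21.3 to 37.8).

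Between the depletion groups of the models, Akt1 was 11.0-fold higher in N-Ras+AKT (log2 difference 3.46, SE 0.17, adjusted p = 9.31e-07) and Nras 1.85-fold higher (0.89, SE 0.13, adjusted p = 0.000474). Akt2 had a log2 difference of -0.03 (SE 0.10, adjusted p = 0.825), which turned to 0.28 (adjusted p = 0.0462) under total count scaling. Hras was 1.37-fold higher (0.46, SE 0.15, adjusted p = 0.0329). The Hras call ended without DEN+CCl4 depletion 6 (0.30, adjusted p = 0.0972), N-Ras+AKT depletion 6 (0.49, adjusted p = 0.0595) or N-Ras+AKT depletion 11 (0.35, adjusted p = 0.124). In this comparison 3 of the 4 genes passed, all higher, beside 33.7% of all genes tested, of which 53.2% were higher (82.5% under total count scaling).

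Other Ras-related genes that were not injected were not level between the models either. In the controls, Rras2, which encodes the Ras-related protein TC21, had 16.6 ± 2.39 CPM in DEN+CCl4 and 32.8 ± 1.29 in N-Ras+AKT (SD, n = 3). Its log2 difference of 0.98 (SE 0.11, adjusted p = 7.62e-05) stands beside the 1.01 of Nras. Mras, which encodes a GTPase that acts with SHOC2 on RAF, had 1.65 ± 0.228 and 4.36 ± 0.383 CPM (1.40, SE 0.26, adjusted p = 0.00165). Rras had 23.6 ± 2.31 and 34.5 ± 11.3 CPM (0.55, SE 0.22, adjusted p = 0.0634) and passed without N-Ras+AKT control 15 (0.74, adjusted p = 0.0154).

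Of Rras, Rras2 and Mras, 2 were therefore higher and none lower between the controls, where 40.6% of all genes tested were called. Between the depletion groups Rras2 (0.84, SE 0.11, adjusted p = 0.000197) and Mras (1.93, SE 0.27, adjusted p = 0.000322) were again higher and none of the 3 was lower, beside 33.7% of all genes.

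The chromosome neighbours of Akt1, Akt2 and Hras that were tested showed no difference of the size seen for Akt1. Siva1 and Zbtb42, which lie 4672 and 3944 bases from Akt1, had log2 differences between the controls of 0.43 (SE 0.24, adjusted p = 0.171) and 0.14 (SE 0.15, adjusted p = 0.477). Under total count scaling they passed, at 1.08 (adjusted p = 0.00375) and 0.79 (adjusted p = 0.0017).

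Beside Akt2, 2310022A10Rik had a log2 difference of -0.23 (SE 0.15, adjusted p = 0.257), which turned to 0.42 (adjusted p = 0.0586) under total count scaling. Beside Hras, Rnh1 had 0.06 (SE 0.10, adjusted p = 0.669). Lrrc56, which starts 152 bases from Hras on the other strand, had 3.001 ± 0.839 and 1.82 ± 0.186 CPM (-0.73, SE 0.24, adjusted p = 0.031), a call that ended without DEN+CCl4 control 13 (adjusted p = 0.155), N-Ras+AKT control 3 (0.0868) or N-Ras+AKT control 15 (0.0754). In GENCODE M21 neither Lrrc56 nor any other annotated gene overlaps Hras. The strand setting of the counting is not given, so only reads beyond the annotated ends of such close genes may not be told apart. Ttc9b and Ampd1, on the far sides of Akt2 and Nras, had at most 2 and 4 counts in a library and were not tested. Between the depletion groups Lrrc56 was again lower (-0.87, SE 0.24, adjusted p = 0.0159), a call that ended without DEN+CCl4 depletion 6 (adjusted p = 0.0616) or N-Ras+AKT depletion 11 (0.0532), and Siva1, Zbtb42, 2310022A10Rik and Rnh1 did not pass. The differences of the members, Rras, Rras2, Mras and these neighbours are plotted side by side.

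**Figure D2:**
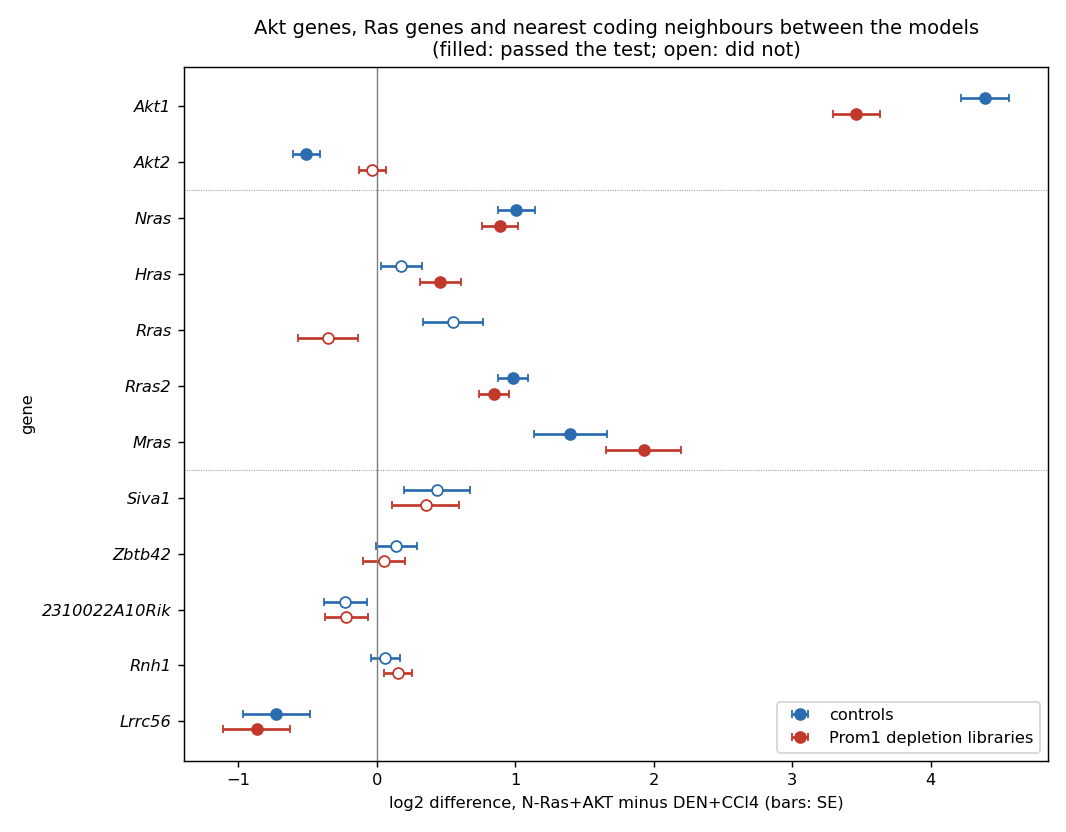
Log2 difference between N-Ras+AKT and DEN+CCl4 tumours on the x axis for each gene on the y axis (Akt genes above, Ras genes in the middle, chromosome neighbours below), in the controls and in the Prom1 depletion libraries, with bars of 1 SE and filled points for tests that passed. Akt1 stands at 4.39 and 3.46, and Nras at 1.01 and 0.89, beside Rras2 at 0.98 and 0.84.

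A ratio of 2 genes within a library does not depend on how libraries are scaled, apart from the 0.5 CPM added before taking logs. The log2 ratio of Akt1 over Akt2 was -0.40 ± 0.03 in DEN+CCl4 controls, -0.44 ± 0.10 in DEN+CCl4 depletion libraries, 4.47 ± 0.33 in N-Ras+AKT controls and 3.04 ± 0.29 in N-Ras+AKT depletion libraries (SD, n = 3). The log2 ratio of Nras over Hras was 0.26 ± 0.10, 0.35 ± 0.09, 1.08 ± 0.26 and 0.78 ± 0.14 in the same order. Both ratios were higher in every N-Ras+AKT library than in every DEN+CCl4 library. The lowest Nras over Hras ratio in the N-Ras+AKT model was 0.64, against 0.46 as the highest in the DEN+CCl4 model.

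With the treatment arms as strata, the mean difference between the models was 4.18 for Akt1 over Akt2 and 0.62 for Nras over Hras. Each had p = 0.005 in a two-sided exact permutation test over 400 assignments, the smallest p this design can give, and 0.005 after adjustment over the 2 ratios. The models differ in more than the plasmids, so the plasmids and the rest of each protocol cannot be told apart.

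**Figure D3:**
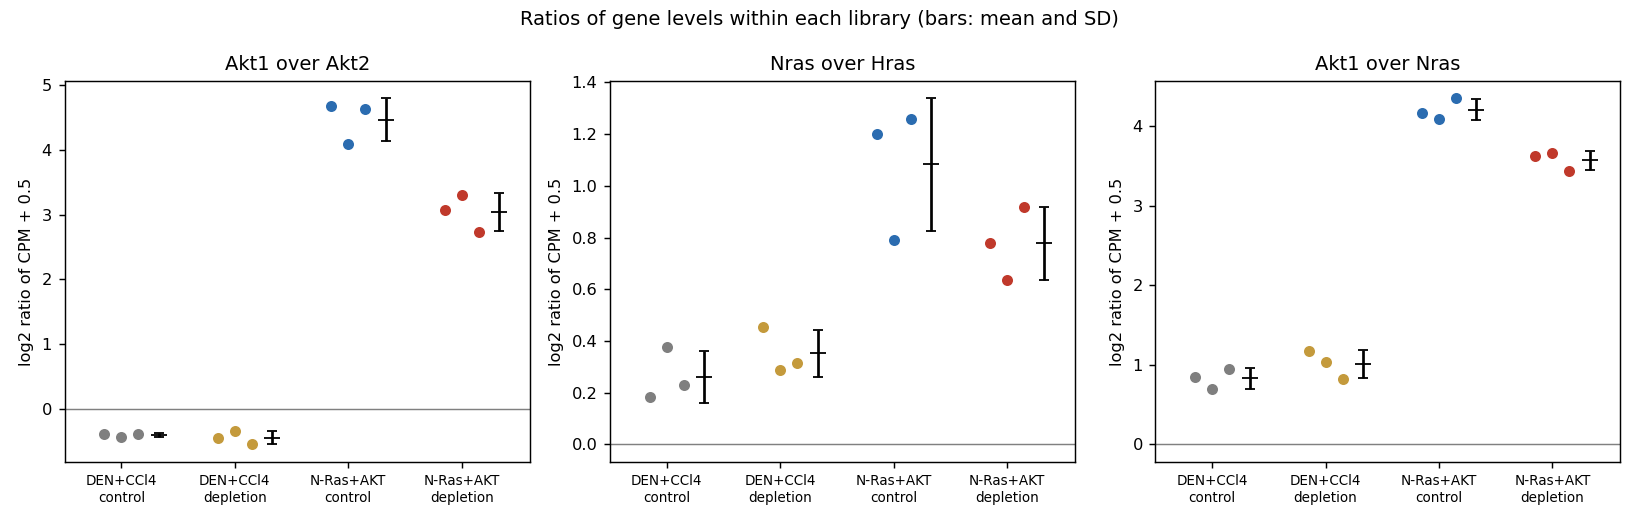
Log2 ratio within each library (CPM + 0.5) on the y axis for Akt1 over Akt2, Nras over Hras and Akt1 over Nras, 1 point per library in 4 groups on the x axis, with the mean and SD of 3 libraries. Akt1 over Akt2 runs from -0.55 to -0.34 in DEN+CCl4 libraries and from 2.73 to 4.68 in N-Ras+AKT libraries.

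Per kilobase of merged exons, the order of the levels of the 4 genes with Rras, Rras2 and Mras in DEN+CCl4 controls was Rras (21.1 ± 2.06 CPM per kilobase), Akt1 (12.8 ± 0.382), Akt2 (9.74 ± 0.415), Hras (6.52 ± 0.238), Nras (5.503 ± 0.532), Rras2 (4.68 ± 0.671) and Mras (0.322 ± 0.0445). The libraries of Nras and Rras2 overlapped, and those of the other neighbours in that order did not. In N-Ras+AKT controls the order was Akt1 (268.5 ± 47.9), Rras (30.8 ± 10.1), Nras (11.1 ± 1.54), Rras2 (9.23 ± 0.364), Hras (7.36 ± 0.709), Akt2 (6.84 ± 0.284) and Mras (0.850 ± 0.0746). There Nras overlapped Rras2, and Hras overlapped Akt2. The levels per kilobase of Akt1 and Nras in N-Ras+AKT libraries are uncertain, since the length of a plasmid transcript is not known.

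In the N-Ras+AKT model, Prom1 depletion went with a lower Akt1 and a higher Akt2 level. Akt1 was 1.97-fold lower in the depletion libraries (log2 difference -0.98, SE 0.15, adjusted p = 0.00341). Akt2 was 1.38-fold higher (0.47, SE 0.10, adjusted p = 0.00764) and no longer passed under total count scaling (0.26, adjusted p = 0.0806). Nras had a log2 difference of -0.35 (SE 0.13, adjusted p = 0.072), with no overlap between the groups, and passed without N-Ras+AKT control 10 (-0.45, adjusted p = 0.0343) or under total count scaling (-0.56, adjusted p = 0.0162). Hras had -0.03 (SE 0.15, adjusted p = 0.903), a value that changed sign without N-Ras+AKT control 3 (0.01), control 10 (0.02) or depletion 17 (0.04). So 2 of the 4 genes passed, beside 23.7% of all genes tested, of which 54.3% were higher (29.1% under total count scaling). That scaling moved the median of all genes from -0.02 to -0.23, relative to which Akt1 was then at -0.96 and Akt2 at 0.49.

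Within N-Ras+AKT libraries, the log2 ratio of Akt1 over Nras was 4.203 ± 0.13 in controls and 3.57 ± 0.12 in depletion libraries (SD, n = 3), with no overlap. In a two-sided exact permutation test of 3 against 3 libraries, that difference of -0.63 had p = 0.1, the smallest p the design allows. The Akt1 over Akt2 ratio also had p = 0.1 (difference -1.43) in the exact permutation test, and Nras over Hras had p = 0.2 (difference -0.30). In bulk tissue, fewer cells of a type and less RNA per cell cannot be told apart.

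In the DEN+CCl4 model none of the 4 genes passed in edgeR, beside 0.370% of all genes tested. The log2 differences were -0.05 (Akt1, SE 0.15, adjusted p = 0.891), -0.01 (Akt2, SE 0.10, adjusted p = 0.97), -0.23 (Nras, SE 0.13, adjusted p = 0.374) and -0.31 (Hras, SE 0.15, adjusted p = 0.287). The Akt1 and Akt2 values turned to 0.08 and 0.11 under total count scaling, with which 51.2% of the genes called were higher instead of 30.2%. Counts of 0 of 4 were also found at an unadjusted p under 0.05, with DESeq2 and with limma-voom. Over all genes, 3186 of 17013 had an unadjusted p under 0.05, DESeq2 called 1043 and limma-voom 71. The Hras libraries of the 2 arms did not overlap.

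The depletion effect on Akt1 differed between the models by -0.93 (SE 0.21, adjusted p = 0.0207), and that call ended without DEN+CCl4 control 7 (-0.90, adjusted p = 0.0594) or DEN+CCl4 depletion 9 (-0.88, adjusted p = 0.0555). For Akt2 the effects differed by 0.48 (SE 0.14, adjusted p = 0.0442), and the call ended in 13 of 18 alternatives, 9 of them with a single library left out. Those 9 were N-Ras+AKT control 3 and 15, N-Ras+AKT depletion 6 and 17, DEN+CCl4 control 7, 8 and 13 and DEN+CCl4 depletion 6 and 9, with values of 0.37 to 0.52. For Nras (-0.12, SE 0.19, adjusted p = 0.722) and Hras (0.28, SE 0.21, adjusted p = 0.406) no difference passed, and the Hras value turned to -0.04 under total count scaling. In this comparison 2 of the 4 genes passed, beside 11.6% of all genes tested, of which 68.9% were higher (27.8% under total count scaling, which moved the median of all genes from -0.03 to -0.36). The depletion effect on Prom1 itself was -2.90 in N-Ras+AKT and -0.995 in DEN+CCl4, a difference that did not pass (-1.90, adjusted p = 0.151). Collection came 6 and 16 days after the final tamoxifen dose. The model, the extent of depletion and the time cannot be told apart in these differences of effects.

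**Figure D4:**
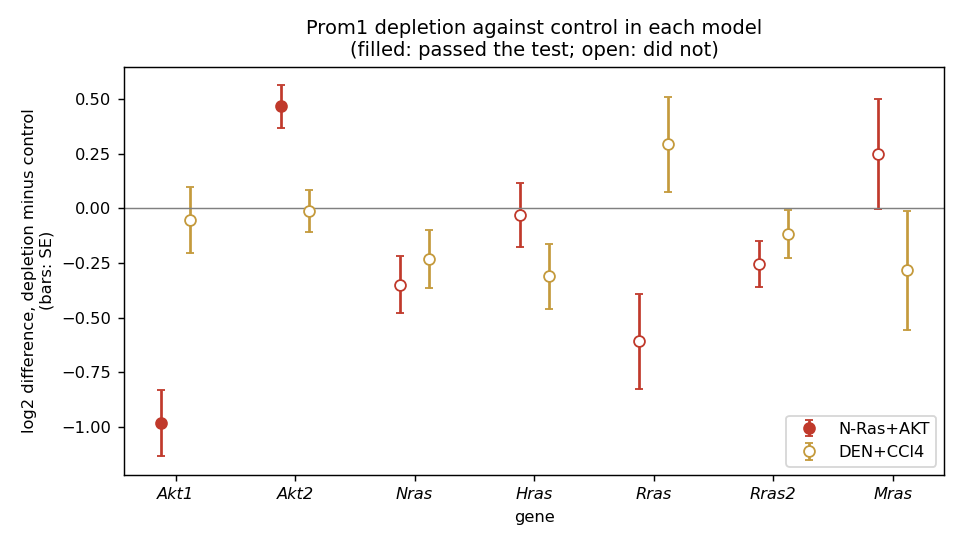
Log2 difference between Prom1 depletion and control libraries on the y axis for 2 Akt and 5 Ras genes on the x axis, in each tumour model, with bars of 1 SE and filled points for tests that passed. Akt1 at -0.98 and Akt2 at 0.47 in the N-Ras+AKT model are the only filled points.

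None of Rras, Rras2 and Mras passed for Prom1 depletion in either model in edgeR. At an unadjusted p under 0.05 there were 2 in N-Ras+AKT and 0 in DEN+CCl4, beside 6346 and 3186 of all 17013 genes. DESeq2 called 1 and 0, beside 4711 and 1043 of all genes. The limma-voom count was 0 in each, beside 4516 and 71. In N-Ras+AKT the log2 differences were -0.61 for Rras (SE 0.22, adjusted p = 0.062), -0.25 for Rras2 (SE 0.11, adjusted p = 0.105) and 0.25 for Mras (SE 0.25, adjusted p = 0.508). With total count scaling Rras (-0.80) and Rras2 (-0.46) passed, and Rras also passed without N-Ras+AKT control 15 (-0.80, adjusted p = 0.0305).

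Markers of cell types moved with these comparisons, and their part in the results was not tested. Of all genes tested, 40.6% were called between the controls, 33.7% between the depletion groups and 23.7% for depletion in N-Ras+AKT. Between the controls, 7 of 8 hepatocyte markers were lower in N-Ras+AKT tumours. Of 7 cholangiocyte markers 6 were tested and all 6 were higher, with a summed level of 177.5 to 478.9 CPM in DEN+CCl4 controls and 7115 to 10300 in N-Ras+AKT controls. After Prom1 depletion in N-Ras+AKT that sum was 297.7 to 3469 CPM and 4 of the 6 were lower. Of 6 macrophage markers 5 were higher after depletion, with sums of 88.5 to 164 CPM in controls and 277.1 to 384 CPM in depletion libraries. Of 8 lymphocyte markers 5 were higher, but 1 or fewer without N-Ras+AKT control 3 or 15 or depletion 6 or 17, with sums of 1.91 to 2.95 and 4.65 to 10.4 CPM. Hepatocyte sums were 72830 to 83130 and 64510 to 73720 CPM, and 2 of 8 were higher, or 1 without N-Ras+AKT control 3, control 15 or depletion 17. That share of 25% lies near the 23.7% of all genes called. Under total count scaling 1 hepatocyte marker was higher and 2 were lower. Of 6 endothelial markers 4 were lower between the controls and all 3 neutrophil markers tested, of 5 listed, were higher. Of 7 stellate cell and fibroblast markers none passed there, by edgeR, at an unadjusted p under 0.05, by DESeq2 or by limma-voom. Between the depletion groups of the models, 6 of 8 hepatocyte markers were lower in N-Ras+AKT, 7 of 8 lymphocyte markers were higher and 4 of 6 macrophage markers were higher. The macrophage count was 1 or 2 without DEN+CCl4 depletion 6 or 9 or N-Ras+AKT depletion 6 or 17. No listed marker was at 0 in all libraries of a group.

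The regulators and outputs of the pathway were taken from lists written from textbook roles, which together with a list of paralogs hold 124 different genes. The lists were chosen with earlier results of these data known, so the shares called are not independent of the data. In the controls, 28 of these 124 genes were higher and 39 lower in N-Ras+AKT, which is 54% called beside 40.6% of all genes tested. After Prom1 depletion in N-Ras+AKT, 15 were higher and 26 lower, or 33.1% beside 23.7%. In DEN+CCl4 depletion, where 0.370% of all genes were called, none passed in edgeR, 33 had an unadjusted p under 0.05, DESeq2 called 12 and limma-voom 1. Over all genes, 3186 of 17013 had an unadjusted p under 0.05, DESeq2 called 1043 of 30644 fitted and limma-voom 71 of 17013. The 30644 are genes before DESeq2's own filter on low counts, so they are not the number that it could call.

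Of 18 listed guanine nucleotide exchange factors, which load Ras with GTP, and GTPase activators, which switch it off, 2 were higher and 6 lower between the controls. That share of 44.4% lies near the 40.6% of all genes called. The list had a median log2 difference of -0.38, and under total count scaling 5 were higher and 2 lower. Both that rose were exchange factors of the RasGRF family, which is known from neurons. Rasgrf1 had no count in the 3 DEN+CCl4 controls and 93 to 487 counts (1.71 to 8.04 CPM) in those of N-Ras+AKT, at least 132-fold higher than a floor of 3 counts over the DEN+CCl4 controls (adjusted p = 0.00197). Without N-Ras+AKT control 3, which had the 8.04 CPM, the bound was 66.2-fold. Rasgrf2 rose from 0.432 ± 0.0365 to 2.56 ± 1.41 CPM (log2 difference 2.56, SE 0.41, adjusted p = 0.000644). Rasgrp2, an exchange factor activated by calcium, fell by 1.92 (SE 0.24, adjusted p = 0.000173), the GTPase activator Rasa3 by 1.07 (SE 0.11, adjusted p = 6.16e-05) and the GTPase activator Dab2ip by 0.72 (SE 0.20, adjusted p = 0.013) on the log2 scale. The Dab2ip call ended without DEN+CCl4 control 13.

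After Prom1 depletion in N-Ras+AKT, 2 of the same 18 genes were higher and 4 lower (33.3%, beside 23.7% of all genes), with a median of -0.03. Rasgrf1 had 0.0226 to 0.572 CPM in the depletion libraries and fell by 3.58 (SE 0.93, adjusted p = 0.0253), a call that ended without N-Ras+AKT control 3 or depletion 6 or 17. The GTPase activator Rasal1 fell by 2.19 (adjusted p = 0.00484). Sos1, the exchange factor recruited to activated receptors, rose by 0.59 (adjusted p = 0.0176) and Rasgrp1 by 1.07 (adjusted p = 0.0296). Both calls ended without N-Ras+AKT control 3 or depletion 17, and that of Rasgrp1 also without control 15 or depletion 6. With total count scaling none was higher and 7 were lower. Without N-Ras+AKT control 3 or depletion 17 no gene of the list was higher and 2 were lower, and without N-Ras+AKT control 15 or depletion 6, 1 was higher.

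Of 9 genes for the lipid processing and membrane delivery of Ras, 3 were higher and 3 lower between the controls (66.7%, beside 40.6% of all genes), with a median of -0.13, and 6 and 0 under total count scaling. Pde6d, a carrier of farnesylated proteins, rose by 0.77 (adjusted p = 0.00362), Fntb, a farnesyltransferase subunit, by 0.73 (adjusted p = 0.0329) and Rce1, the protease of the processed tail, by 0.54 (adjusted p = 0.0271). The Fntb call ended without any 1 of the libraries except N-Ras+AKT control 10, and the Rce1 call without DEN+CCl4 control 7 or 13 or N-Ras+AKT control 3. Without DEN+CCl4 control 7 or 13 or N-Ras+AKT control 3, only 1 was higher. Zdhhc9 and Golga7, the subunits of the Ras palmitoyltransferase, fell by 0.996 (adjusted p = 0.000252) and 0.53 (adjusted p = 0.00103), the latter 0.12 under total count scaling. Lypla2, a depalmitoylating enzyme, fell by 0.35 (adjusted p = 0.0313) and was at 0.30 under total count scaling. Its call ended without any 1 of the libraries except N-Ras+AKT control 3. After depletion in N-Ras+AKT, Zdhhc9 (0.62, adjusted p = 0.00953) and Lypla1 (0.53, adjusted p = 0.0158) were higher and none was lower (22.2%, beside 23.7% of all genes), with a median of 0.01. Without N-Ras+AKT control 3 or depletion 17 the Lypla1 call ended, and under total count scaling none was higher and 1 was lower.

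Among 20 Ras effectors and kinases of the MAP kinase cascade, 8 were higher and 4 lower between the controls (60%, beside 40.6% of all genes), with a median of -0.02, and 14 and 2 under total count scaling. Rin1 (1.84, adjusted p = 0.0283), Rassf1 (1.15, adjusted p = 0.000604) and Rala (0.97, adjusted p = 0.000174) had the largest rises. Rala encodes a GTPase downstream of Ras that Ralgds activates, and Rassf1 a Ras-association protein. The Rin1 call ended without DEN+CCl4 control 7, 8 or 13 or N-Ras+AKT control 3 or 15. Rgl3 and Rgl1, exchange factors for Ral, fell by 1.25 (adjusted p = 0.000704) and 1.21 (adjusted p = 5.67e-05), and the scaffold Ksr1 by 0.86 (adjusted p = 0.023). The Ksr1 call ended without DEN+CCl4 control 13 or N-Ras+AKT control 3 or 15, and without DEN+CCl4 control 13 the list had 5 genes higher. After depletion in N-Ras+AKT, 1 was higher and 4 lower, with a median of -0.14. That share of 25% lies near the 23.7% of all genes called. The largest falls were those of Ralgds (-0.997, adjusted p = 0.00451), Ralb, which encodes another Ral GTPase (-0.86, adjusted p = 0.00829), and Mapk3, which encodes ERK1 (-0.80, adjusted p = 0.0122). Under total count scaling none was higher and 6 were lower. Without N-Ras+AKT control 3 or 15 or depletion 6 or 17 none was higher, and without control 10, 2 were.

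MAP kinase signalling induces a set of transcripts, many of which encode its own feedback inhibitors. Of 19 listed, 12 fell and none rose after Prom1 depletion in N-Ras+AKT (63.2% called, beside 23.7% of all genes), with a median log2 difference of -0.98 beside -0.02 over all genes. The other 7 did not pass, among them Phlda1 (0.15, adjusted p = 0.774) and Myc (0.11, adjusted p = 0.826), which lay above 0. Without a filter on low counts 7 fell. At an unadjusted p under 0.05 there were 16, DESeq2 called 14 and limma-voom 12. Over all genes, 6346 of 17013 had an unadjusted p under 0.05, DESeq2 called 4711 of 30644 fitted before its own filter and limma-voom 4516 of 17013. Etv4, an ETS transcription factor, fell by 2.51 (SE 0.63, adjusted p = 0.0182), from 10.8 to 1.88 mean CPM, a call that ended without N-Ras+AKT control 15. Spry2, a feedback inhibitor of the Ras pathway, fell by 2.02 (SE 0.32, adjusted p = 0.00363), from 5.196 to 1.28 mean CPM. Dusp4, a MAP kinase phosphatase, fell by 1.91 (SE 0.46, adjusted p = 0.0156), from 21.6 to 5.74 mean CPM, a call that ended without N-Ras+AKT control 3. With 1 library left out the count of lower genes ran from 8 to 12.

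Between the controls, the same 19 genes did not move in 1 direction, with 3 higher, 7 lower (52.6%, beside 40.6% of all genes) and a median of -0.25. Under total count scaling 5 were higher and 3 lower. Etv4 (2.54, SE 0.64, adjusted p = 0.00943), Spred3, of the Sprouty-related inhibitors of Ras signalling (1.57, SE 0.32, adjusted p = 0.00262), and the transcription factor Myc (0.96, SE 0.31, adjusted p = 0.0279) rose. The Myc call ended without DEN+CCl4 control 7 or 13 or N-Ras+AKT control 3 or 10. Spry4, another Sprouty inhibitor (-2.12, SE 0.15, adjusted p = 6.12e-06), the immediate early gene Egr1 (-1.91, SE 0.43, adjusted p = 0.00504) and the phosphatase Dusp5 (-1.77, SE 0.36, adjusted p = 0.00322) fell. The comparison of the controls and the depletion comparison share the N-Ras+AKT controls, so the 2 values of a gene are not independent. Between the depletion groups of the 2 models 11 of the 19 were lower and none higher (57.9%, beside 33.7% of all genes), with a median of -1.19. The hepatocyte, lymphocyte and macrophage markers given above moved in the same comparison, and their part in the result was not tested. DESeq2 called 12 there and limma-voom 11, with 12 at an unadjusted p under 0.05. Over all genes, DESeq2 called 6222 of 30644 fitted before its own filter and limma-voom 5504 of 17013, with 7525 of 17013 at an unadjusted p under 0.05. Without DEN+CCl4 depletion 6, 1 gene was higher, and with total count scaling 2 were.

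In DEN+CCl4 none of the 19 passed for depletion in edgeR (0.370% of all genes did), with a median of -0.33. There were 5 at an unadjusted p under 0.05, beside 3186 of all 17013 genes. DESeq2 and limma-voom called 0 of the 19, beside 1043 and 71 of all genes. Of the 19, 3 had a lower depletion effect in N-Ras+AKT than in DEN+CCl4 (15.8%, beside 11.6% of all genes). That count was 0 without any 1 of DEN+CCl4 control 7, 8 or 13, DEN+CCl4 depletion 6 or 9 or N-Ras+AKT control 15, 1 without DEN+CCl4 depletion 10 or N-Ras+AKT control 3, and 5 without N-Ras+AKT depletion 11.

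**Figure D5:**
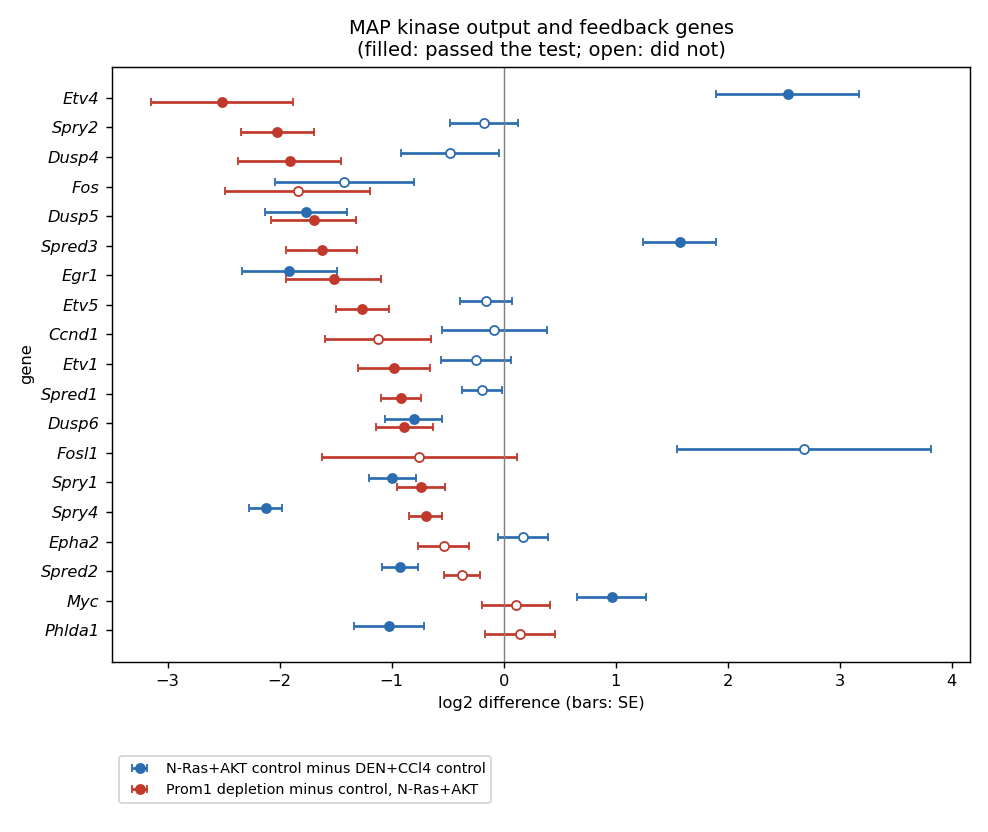
Log2 difference on the x axis for the 19 MAP kinase output and feedback genes on the y axis, between the controls of the 2 models and between Prom1 depletion and control in N-Ras+AKT, with bars of 1 SE and filled points for tests that passed. In the depletion comparison 12 points are filled and all lie below 0, from -2.51 (Etv4) to -0.70 (Spry4).

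Of 17 genes that lead from insulin receptor to AKT through PI3 kinase, 2 were higher and 6 lower between the controls (47.1%, beside 40.6% of all genes), with a median of -0.37, and 7 and 2 under total count scaling. Pik3r3 and Pik3r1, regulatory subunits of PI3 kinase, rose by 1.31 (adjusted p = 0.00445) and 0.99 (adjusted p = 0.000123). Irs1, which couples the receptor to PI3 kinase, fell by 1.90 (adjusted p = 0.000703), the receptor gene Insr by 1.40 (adjusted p = 4.06e-05) and Mtor by 0.69 (adjusted p = 0.00192). Without DEN+CCl4 control 13, 3 were lower. After depletion in N-Ras+AKT, 5 were higher and 1 lower (35.3%, beside 23.7% of all genes), with a median of 0.13. The largest rises were Irs2 (1.53, adjusted p = 0.03), Irs1 (1.03, adjusted p = 0.0295) and Pik3cd (0.86, adjusted p = 0.00953), and Pik3r3 fell by 1.04 (adjusted p = 0.0252). The Irs1 call ended without N-Ras+AKT control 3 or 10 or depletion 6 or 17, the Irs2 call without control 3, 10 or 15 or depletion 11 or 17, and the Pik3r3 call without control 15 or depletion 17. Under total count scaling 2 were higher and 2 lower. Leaving out N-Ras+AKT control 3 or depletion 17 left 2 higher, and leaving out control 10, control 15 or depletion 6 left 3. Without control 15 or depletion 17 none was lower.

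Of 12 antagonists of PI3 kinase and AKT, 1 was higher and 4 lower between the controls, with a median of -0.13, and 8 and 0 under total count scaling. The 5 called genes (41.7% of the list) lie near the 40.6% of all genes called. Ppp2r2b, a regulatory subunit of phosphatase 2A, rose from 0.306 to 4.94 mean CPM (3.98, SE 0.62, adjusted p = 0.000547). Phlpp1, an AKT phosphatase, fell by 0.77 (adjusted p = 0.00344). Tsc1 fell by 0.66 (adjusted p = 0.00107) and Tsc2 by 0.59 (adjusted p = 0.00383), the latter at 0.06 under total count scaling. Their products form the complex that restrains mTORC1. Without DEN+CCl4 control 13, 2 were higher. After depletion in N-Ras+AKT, 2 were higher and 1 lower, with a median of 0.07, and 25% called is again near the 23.7% of all genes. Ppp2r2b fell by 3.22 (adjusted p = 0.00474), while Phlpp1 (0.52, adjusted p = 0.0397) and Tsc2 (0.45, adjusted p = 0.027) rose. Without N-Ras+AKT control 3 or depletion 6 or 17 none was higher, and without control 10, 1 was. With total count scaling none was higher and 3 were lower.

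Of 13 genes for AKT substrates, 5 were higher and 3 lower between the controls (61.5%, beside 40.6% of all genes), with a median of 0.20, and 9 and 0 under total count scaling. Tbc1d4, which restrains glucose transporter traffic, rose by 1.25 (adjusted p = 0.00284), its relative Tbc1d1 by 0.81 (adjusted p = 0.00209) and the cell cycle inhibitor gene Cdkn1b by 0.54 (adjusted p = 0.0126). Foxo1 fell by 0.87 (adjusted p = 0.00233), Pfkfb2 by 0.64 (adjusted p = 0.0076) and Foxo3 by 0.40 (adjusted p = 0.0215), of which Pfkfb2 (0.01) and Foxo3 (0.25) were above 0 under total count scaling. The Cdkn1b call ended without N-Ras+AKT control 3, which left 3 higher, and the Foxo3 call without DEN+CCl4 control 8 or N-Ras+AKT control 10 or 15. After depletion in N-Ras+AKT none was higher and 4 were lower (30.8%, beside 23.7% of all genes), with a median of -0.08. At an unadjusted p under 0.05 there were 5, DESeq2 called 5 and limma-voom 4. Over all genes the same 3 counts were 6346, 4711 and 4516. Tbc1d4 fell by 1.01 (adjusted p = 0.0168), Tbc1d1 by 0.72 (adjusted p = 0.00931) and Pfkfb2 by 0.50 (adjusted p = 0.0416). The Tbc1d4 call ended without N-Ras+AKT control 15 or depletion 17, and the Pfkfb2 call without control 3 or 15 or depletion 6 or 17. Without control 15 or depletion 17, 1 was lower, and without control 3 or depletion 6, 2 were. Without depletion 11, 1 was higher.

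Of 14 listed transcripts that FOXO factors induce in liver, 2 were higher and 6 lower in the N-Ras+AKT controls (57.1% called, beside 40.6% of all genes) and 6 did not pass, with a median of -0.42 beside 0.04 over all genes. The balance turned to 5 higher and 3 lower under total count scaling. Pck1, the first committed enzyme of gluconeogenesis, fell by 2.02 (SE 0.39, adjusted p = 0.00205), from 2902 to 716 mean CPM. Igfbp1, a binding protein of insulin-like growth factors that insulin represses, fell by 1.77 (SE 0.46, adjusted p = 0.0106), from 741 to 217 mean CPM. G6pc, the catalytic subunit of glucose-6-phosphatase, fell by 1.69 (SE 0.57, adjusted p = 0.0356), a call that ended without DEN+CCl4 control 13 or N-Ras+AKT control 3 or 15. Ccng2, which encodes a cyclin of arrested cells, rose by 1.32 (adjusted p = 0.0183; ended without DEN+CCl4 control 7 or 8 or N-Ras+AKT control 3) and Cdkn1b, also among the substrates, by 0.54 (adjusted p = 0.0126). Without DEN+CCl4 control 7, 1 was higher, and without N-Ras+AKT control 3 none was. Several of these genes are also genes of mature hepatocytes, whose markers were lower in the same comparison, and their part in the result was not tested.

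After Prom1 depletion in N-Ras+AKT, 5 of the 14 were higher and 1 lower (42.9%, beside 23.7% of all genes), with a median of 0.51. G6pc rose by 3.55 (adjusted p = 0.00474), Irs2 by 1.53 (adjusted p = 0.03) and Sesn3 by 0.78 (adjusted p = 0.0274), and Cdkn1b fell by 0.47 (adjusted p = 0.0397). G6pc passed with any 1 library left out, whereas Irs2, Sesn3 and Cdkn1b each lost their call without N-Ras+AKT control 3, control 15 or depletion 17, among others. Without N-Ras+AKT control 3, control 15 or depletion 17, only 1 gene of the list was higher. Without control 3, control 15, depletion 6 or depletion 17, none was lower. With total count scaling 2 were higher and 1 lower. For depletion in DEN+CCl4 the same list had a median of 0.57, and none passed in edgeR (0.370% of all genes did). There 8 of the 14 had an unadjusted p under 0.05, DESeq2 called 3 and limma-voom 1. Over all 17013 genes tested, 3186 had an unadjusted p under 0.05, DESeq2 called 1043 and limma-voom 71. The difference of the depletion effects between the models had a median of 0.055 over the list.

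The genes whose levels followed Akt1 and Nras most closely over the 12 libraries were taken by Pearson's r of log2 CPM. For Akt1 they were Hr (r = 0.990), Taf13 (0.988), Wfdc2 (0.987), Serpinb6b (0.986) and Tsg101 (0.986). For Nras they were Cdr2 (0.989), Hspa4 (0.988), Tmsb10 (0.983), Casp8 (0.982) and Msantd4 (0.981). None of these 10 lies beside either locus in the neighbour list above. Akt1 and Nras were themselves correlated at 0.959, and Akt1 was at 0.976 with Rras2, 0.64 with Hras and -0.73 with Akt2. These values describe 12 libraries that fall into 2 models and share library size, tissue make-up and the same 4 groups. Serpinb6b, for instance, had 2.65, 2.15, 41.7 and 25.7 mean CPM in DEN+CCl4 controls, DEN+CCl4 depletion, N-Ras+AKT controls and N-Ras+AKT depletion. Tmsb10 had 12.7, 5.84, 179.8 and 84.8 mean CPM in the same order. For depletion in N-Ras+AKT, neither Serpinb6b (adjusted p = 0.078) nor Tmsb10 (0.146) passed in edgeR, nor did Hr (-0.28, adjusted p = 0.333). Of the 10 genes only Wfdc2 did (-0.91, adjusted p = 0.0417).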

How the data were processed

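The measurement was bulk RNA-seq of liver tumour tissue in 12 libraries, 3 in each of 4 groups taken from the labels; 6 single-cell samples were not analysed here. The values are whole-number counts per gene, deposited by the authors in 1 table. The submitters' processing notes name the mm10 build, RSEM 1.3.1, STAR 2.7.3 and Cell Ranger 3.0.2 without their roles. How strand and annotation entered the counting is not stated. The deposited counts may therefore be rounded estimates. Ensembl IDs were matched to GENCODE M21, which named 55154 of 55335; the 181 others held 0.0064% of counts.

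From the counts, edgeR 4.0.16 (R 4.3.3) was fitted to all 12 libraries with TMM factors (0.773 to 1.323), filterByExpr (minimum count 10) and a robust quasi-likelihood test on 8 residual degrees of freedom, with Benjamini-Hochberg adjustment over 17013 genes at 0.05. The biological coefficient of variation was 0.238, and the fit was first tested on simulated data. Totals of 31306617 to 48055812 counts leave the spread between libraries, not counting error, as the main limit for these genes. Log ratios used CPM + 0.5, and levels per kilobase used merged annotated exons. Alternatives were other scalings, no filter, DESeq2 1.42.0, limma-voom (limma 3.58.1), fewer libraries and each library left out. Leaving out both libraries that stood apart was chosen after seeing the data. Results on some paralogs, neighbours, list members and sequences are not reported here. Named genes were the 4 genes, their paralogs, the nearest coding neighbours, up to 3 higher and 3 lower genes per list with the largest changes among those that passed, and the 5 genes closest to Akt1 and Nras by correlation. The members and lists were chosen with earlier results of these data known.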

Additional observations from a re-analysis of the deposited data

Results flagged for a closer look

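The effect of Prom1 depletion differed between the models for Akt1 by -0.93 and for Akt2 by 0.48 on the log2 scale, each by the interaction term of the edgeR fit (adjusted p = 0.0207 and 0.0442). The Akt1 effect was -0.98 in N-Ras+AKT and -0.05 in DEN+CCl4, and the Akt2 effect was 0.47 and -0.01. The Akt1 groups of N-Ras+AKT did not overlap. Prom1 itself changed by -2.90 in N-Ras+AKT and -0.995 in DEN+CCl4, and the time from the final tamoxifen dose to collection differed. These cannot be told apart from the model. The Akt2 difference is the less stable of the pair, since its call ended in 13 of 18 alternatives. That of Akt1 ended in 3 of 18.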

How the results depend on the processing

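Of 22 tested results, 8 kept their direction and their side of the threshold in every alternative run. Scaling by total counts turned Akt2 to 0.14 between the controls, Akt2 to 0.28 between the depletion groups, Akt1 to 0.078 and Akt2 to 0.11 for depletion in DEN+CCl4, and the Hras difference of effects to -0.039. It took Hras between the controls (0.82) and Nras for depletion in N-Ras+AKT (-0.56) past the threshold, and Akt2 for that depletion (0.26) and its difference of effects (0.15) short of it. The Akt2 difference also missed the threshold with DESeq2 size factors (0.47) and without a filter (0.49). With only the 6 libraries compared, Hras between the depletion groups missed it (0.45) and Akt2 for DEN+CCl4 depletion was 0.0032. With the pair N-Ras+AKT depletion 17 and DEN+CCl4 depletion 6 left out, Hras between the depletion groups (0.35) and the Akt1 (-0.90) and Akt2 (0.36) differences of effects missed it, and Hras for N-Ras+AKT depletion (0.047) and Akt2 for DEN+CCl4 depletion (0.029) changed sign. The cause of these changes was not tested. The ratio tests gave p = 0.1, the smallest an exact permutation of 3 against 3 can give, in controls alone (4.87 for Akt1 over Akt2, 0.82 for Nras over Hras) and in depletion libraries alone (3.48 and 0.43). With 1 library left out, the values ran from -0.14 to 0.033 (Akt2 between the depletion groups, with sign changes at 0.014 and 0.033), 0.30 to 0.57 (Hras between the depletion groups), -0.45 to -0.25 (Nras, N-Ras+AKT depletion), -0.14 to 0.042 (Hras, N-Ras+AKT depletion, with sign changes at 0.0081, 0.015 and 0.042), -0.056 to 0.024 (Akt2, DEN+CCl4 depletion, with sign changes at 0.015 and 0.024), -1.07 to -0.85 (Akt1 difference of effects) and 0.37 to 0.54 (Akt2 difference of effects). Without a filter on low counts 171 genes were called for depletion in DEN+CCl4, against 63, and DESeq2 called 1043. DESeq2 called 2915 for the difference of effects, against 1970. No paired analysis was possible because the groups compared share fewer than 2 replicate numbers. Depth limits the neighbours Ttc9b and Ampd1, the low counts of Rasgrf1 and the cholangiocyte and neutrophil markers that were not tested. Counts were also low for Rasgrf2 (11 to 16 in DEN+CCl4 controls) and Mras (40 to 65). The lymphocyte markers had low sums as well (1.91 to 2.95 CPM in N-Ras+AKT controls).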
